A study of Mus musculus with 15 samples.

Results

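Sox9, Sp7, Dlx5, Msx2, Bmp2, Bmp4, Ibsp and Comp are genes of bone and cartilage formation, and Ctsk encodes a protease that breaks bone matrix down. These 9 genes were examined here in the mouse aorta after a short exposure to dietary phosphate. They were chosen by name as osteochondrogenic factors, and each was read from the brightest probe set that names that gene alone. All 9 were measured, among 22180 genes on 15 arrays of total RNA. Each had exactly 1 such probe set.

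Mice of the inbred DBA/2NCrl strain, 8 weeks old when the experiment began, were given either diet for 5 days. The high-phosphate diet held 20.2 g of phosphorus per kg, and the standard chow held 7.0 g per kg. The 4 groups were abdominal aorta on high phosphate (4 arrays), abdominal aorta on chow (4 arrays), thoracic aorta on high phosphate (3 arrays) and thoracic aorta on chow (4 arrays). The labels describe the arrays of a group as biological replicates. They give no sex, do not say whether the 2 segments came from the same mice, and name no transgene or genetic change. The study asks what a phosphate-rich diet does to gene expression in each segment, and the question for these 9 genes is whether a bone or cartilage programme differed between diets or segments. Levels are normalised log2 intensities per probe set, so they compare arrays and not genes, and a change is the log2 difference that limma fitted, given ± SE or with its 95% confidence interval. A gene is called where its p, adjusted by the Benjamini-Hochberg method across the 22180 genes, is under 0.05.

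As background, arterial calcification in chronic phosphate excess is accompanied by a change of smooth muscle cells towards a bone or cartilage forming state. Bone morphogenetic proteins are secreted ligands that act through receptor kinases and SMAD proteins, and they induce transcription factors such as Msx2, Dlx5, Sp7 and Sox9. These factors in turn activate genes of the mineralising matrix, while proteases such as cathepsin K break that matrix down.

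Markers of other tissues were high in some arrays, and the labels do not say how the vessel was cleaned of surrounding tissue. Markers of T and NK cells (mean of 11 genes) ranged from 6.11 to 8.11 in abdominal high-phosphate and from 5.61 to 7.81 in abdominal chow arrays, and from 5.49 to 5.83 in thoracic high-phosphate and from 5.62 to 5.68 in thoracic chow arrays. The high values lay in abdominal high-phosphate arrays 1, 2 and 4 and abdominal chow arrays 2 and 4. Hepatocyte markers (mean of 11 genes) were high in 3 arrays, at 8.01 in abdominal high-phosphate array 3, at 9.93 in array 4 of that group and at 6.56 in thoracic chow array 4. They lay between 5.40 and 5.60 in the abdominal chow group. Skeletal muscle markers (mean of 10 genes) ranged from 5.36 to 7.32 in abdominal high-phosphate and from 5.43 to 7.97 in abdominal chow arrays. In thoracic arrays they ranged from 5.75 to 7.45 on high phosphate and from 5.35 to 6.42 on chow. No set of arrays was left out for skeletal muscle markers. The mean of 10 smooth muscle genes lay between 8.14 and 9.46 in every array, and that of 12 cardiac muscle genes was at least 7.71 in thoracic and at most 6.18 in abdominal arrays. Results below are therefore also given without the 5 arrays with high lymphocyte markers and without the 3 with high hepatocyte markers where that changes them. The fit without the 5 keeps 1 abdominal high-phosphate array, array 3, where hepatocyte markers were at 8.01. In such bulk samples fewer cells of a type and less RNA per cell cannot be told apart.

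In the abdominal aorta the 9 genes were, with the exception of Ctsk, called neither higher nor lower on high phosphate. Ctsk, which encodes the collagen-degrading protease cathepsin K, fell 1.42-fold. This is 1 of 9 called, where 7.01% of all genes were (1.95% higher and 5.06% lower). In the thoracic aorta 0 of 9 were called by limma, where 2.47% of all genes were (1.39% higher and 1.08% lower), and 2 of 9 had an unadjusted p under 0.05, as 13.8% of all genes did. The transcription factors, the BMP ligands and the matrix genes gave no call for diet in either segment. Between segments, Bmp2 and Dlx5 were called on high phosphate, 2 of 9 where 13.8% of all genes were. On chow 0 of 9 were called, where 4.78% of all genes were. The Dlx5 difference, thoracic minus abdominal, was 0.56 on high phosphate and 0.55 on chow. Neither the Bmp2 nor the Dlx5 call held under every exclusion, as given below.

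**Figure D1:**
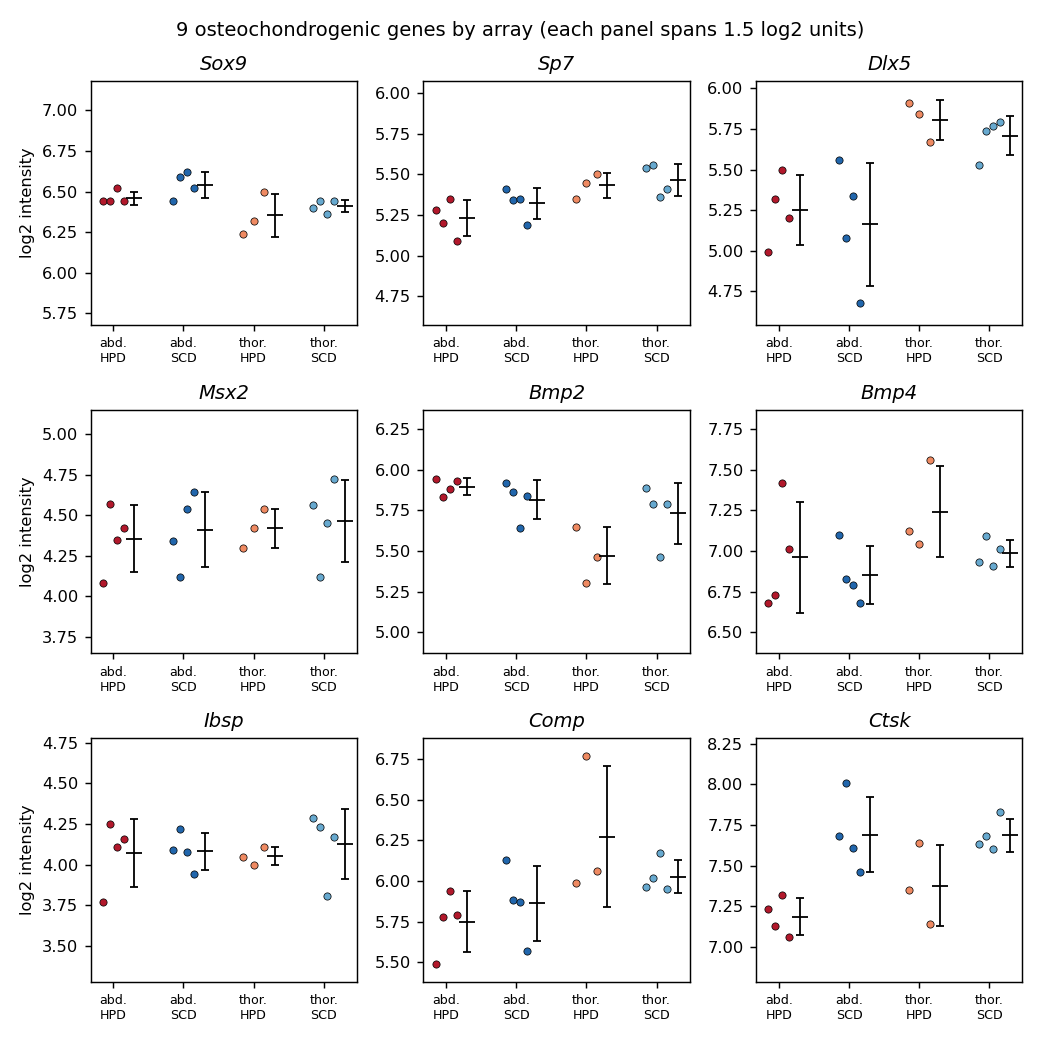
Normalised log2 intensity of the 9 genes in each of the 15 arrays, by segment and diet (HPD, high phosphate; SCD, chow); points are arrays and the bar beside them is the group mean ± SD, and each panel spans the same number of log2 units. The 4 abdominal high-phosphate values of Ctsk lie between 7.06 and 7.32, all below the abdominal chow values of 7.46 to 8.01, and those of Dlx5 lie between 5.67 and 5.91 in thoracic and 4.99 and 5.50 in abdominal high-phosphate arrays.

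Sox9, the transcription factor required for cartilage formation, varied little. It lay at 6.44, 6.44, 6.52 and 6.44 in abdominal high-phosphate arrays, against 6.44, 6.59, 6.62 and 6.52 in abdominal chow arrays. Thoracic values were 6.24, 6.32 and 6.50 on high phosphate, against 6.40, 6.44, 6.36 and 6.44 on chow. Both pairs of groups overlapped, and the whole range over 15 arrays was 1.3-fold. The SD pooled within groups was 0.0768, against a median of 0.155 over all genes. The identical value of 6.44 stood in 5 arrays, and 2.46% of all genes had 5 or more arrays with a shared value.

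Sp7, known as osterix, is required for osteoblast formation. Its levels were 5.28, 5.20, 5.35 and 5.09 in abdominal high-phosphate arrays, against 5.41, 5.34, 5.35 and 5.19 in abdominal chow arrays. They were 5.35, 5.45 and 5.50 in thoracic high-phosphate arrays, against 5.54, 5.56, 5.36 and 5.41 in thoracic chow arrays. The diets overlapped in both segments. The lowest thoracic and the highest abdominal high-phosphate value both rounded to 5.35, and the segment difference on that diet was 0.21 ± 0.0886 with an adjusted p of 0.141 (limma).

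Dlx5 is a homeodomain factor of early bone formation. It lay at 4.99, 5.32, 5.50 and 5.20 in abdominal high-phosphate arrays, against 5.56, 5.08, 5.34 and 4.68 in abdominal chow arrays. In the thoracic aorta the values were 5.91, 5.84 and 5.67 on high phosphate and 5.53, 5.74, 5.77 and 5.79 on chow. The abdominal chow group was the most spread, with an SD of 0.38, and the diets overlapped in both segments. All 3 thoracic high-phosphate values stood above all 4 abdominal high-phosphate values.

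Msx2, a homeodomain factor induced by BMP signals, had a mean of 4.41 over all arrays. Its levels were 4.08, 4.57, 4.35 and 4.42 in abdominal high-phosphate arrays, against 4.34, 4.12, 4.54 and 4.64 in abdominal chow arrays. They were 4.30, 4.42 and 4.54 in thoracic high-phosphate arrays, against 4.56, 4.12, 4.45 and 4.72 in thoracic chow arrays. The groups overlapped in every comparison. Msx2 and Ibsp lay below the 30th percentile of mean intensity over all genes, at 5.24, and the other 7 lay above it. Signal over background is unknown here, so whether either was detected cannot be stated.

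Bmp2 and Bmp4 are ligands of the BMP family. Bmp2 lay at 5.94, 5.83, 5.88 and 5.93 in abdominal high-phosphate arrays, against 5.92, 5.86, 5.64 and 5.84 in abdominal chow arrays. Its thoracic values were 5.65, 5.30 and 5.46 on high phosphate, against 5.89, 5.79, 5.46 and 5.79 on chow. Thoracic high-phosphate arrays 2 and 3 held low values, and the thoracic groups overlapped, with thoracic chow array 3 also low. The thoracic diet difference was -0.26 ± 0.11, with an unadjusted p of 0.031 and an adjusted p of 0.292 (limma). The abdominal minus thoracic difference of the diet changes was 0.35 ± 0.15 with an adjusted p of 0.879, and 0.0% of all genes were called in that contrast. An unadjusted p under 0.05 was reached there by 5.49% of all genes.

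Bmp4 was the ligand with the wider spread. It lay at 6.68, 6.73, 7.42 and 7.01 in abdominal high-phosphate arrays, against 7.10, 6.83, 6.79 and 6.68 in abdominal chow arrays. Thoracic levels were 7.12, 7.04 and 7.56 on high phosphate, against 6.93, 7.09, 6.91 and 7.01 on chow. The groups overlapped, and in each segment array 3 on high phosphate held the highest value. The diet difference was 0.11 in the abdominal and 0.25 ± 0.166 in the thoracic aorta, where the adjusted p was 0.575 (limma). Without thoracic high-phosphate array 3 the thoracic difference was 0.09. The abdominal difference of Bmp4 was -0.05 without abdominal high-phosphate array 3, 0.48 (adjusted p 0.429, limma) without the 5 lymphocyte-marker arrays and -0.15 (adjusted p 0.655) without the 3 hepatocyte-marker arrays.

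Ibsp encodes bone sialoprotein, a matrix protein that nucleates mineral, and its mean over all arrays was 4.09. Its levels were 3.77, 4.25, 4.11 and 4.16 in abdominal high-phosphate arrays, against 4.09, 4.22, 4.08 and 3.94 in abdominal chow arrays. They were 4.05, 4.00 and 4.11 in thoracic high-phosphate arrays, against 4.29, 4.23, 3.81 and 4.17 in thoracic chow arrays. The 15 values spanned 1.43-fold, the groups overlapped in every comparison, and no group stood apart. RefSeq promoters (250 bases before to 50 after the start, GRCm38.p6) were matched for 4 of the 9, Bmp4, Msx2, Ibsp and Ctsk. The Ibsp promoter is shown because homeodomain factors of the Dlx and Msx kind are known to act on it. It lies at chr5:104299037-104299336 on the plus strand, printed 5′ to 3′ with the homeodomain core TAATT in capitals (read on the reverse strand as AATTA).
Ibsp: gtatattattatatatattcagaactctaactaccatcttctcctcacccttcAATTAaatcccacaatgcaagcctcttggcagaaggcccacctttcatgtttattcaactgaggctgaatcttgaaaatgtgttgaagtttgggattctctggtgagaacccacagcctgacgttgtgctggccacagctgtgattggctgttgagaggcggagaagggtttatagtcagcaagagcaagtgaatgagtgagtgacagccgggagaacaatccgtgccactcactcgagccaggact
The core TAATT, searched on both strands, occurred 1 time in this window and overlapped none of the other motifs searched. It occurs in 27.0% of 32851 promoters, and it was found 3 times in the Msx2 window and 0 times in those of Bmp4 and Ctsk. A match describes the letters alone.

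Comp encodes cartilage oligomeric matrix protein, a thrombospondin that binds collagen in cartilage and tendon and is also made by vascular smooth muscle. It lay at 5.49, 5.78, 5.94 and 5.79 in abdominal high-phosphate arrays, against 6.13, 5.88, 5.87 and 5.57 in abdominal chow arrays. Comp had thoracic levels of 5.99, 6.77 and 6.06 on high phosphate, against 5.96, 6.02, 6.17 and 5.95 on chow. Thoracic high-phosphate array 2 held by far the highest value and the other two lay among the chow arrays. The thoracic diet difference was 0.25 ± 0.172 with an adjusted p of 0.607 (limma).

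Ctsk gave the call for diet. It lay at 7.23, 7.13, 7.32 and 7.06 in abdominal high-phosphate arrays, against 7.68, 8.01, 7.61 and 7.46 in abdominal chow arrays. Thoracic levels of Ctsk were 7.35, 7.64 and 7.14 on high phosphate, against 7.63, 7.68, 7.60 and 7.83 on chow. The abdominal groups did not overlap, as for 11.9% of all genes, and in the thoracic aorta high-phosphate array 2 lay within the chow range. The abdominal change was -0.50 ± 0.12 (interval -0.76 to -0.25), with an adjusted p of 0.0185 by limma. A two-sided exact permutation test of this gene alone, not adjusted over genes, gave a p of 0.0286. That is the smallest p that 4 arrays against 4 allow. The thoracic difference was -0.31 ± 0.13 (interval -0.59 to -0.03), with an unadjusted p of 0.0312 and an adjusted p of 0.293, and the exact permutation p was 0.0857 where 0.0286 is the smallest possible. Averaged over segments Ctsk fell by 0.41 on the log2 scale (SE 0.0886, 1.33-fold lower, adjusted p 0.00696 by limma), 1 of 9 called where 10.7% of all genes were (4.53% higher and 6.18% lower). Without the 5 lymphocyte-marker arrays this average was -0.32 ± 0.108 with an adjusted p of 0.141 (limma). The 2 diet changes differed by -0.20 ± 0.177 (interval -0.57 to 0.18, adjusted p 0.901), so a difference between segments was not detected.

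The abdominal call depended on which arrays were in the fit. With the 5 lymphocyte-marker arrays left out the change was -0.33. That fit keeps 1 abdominal high-phosphate array, array 3, where hepatocyte markers were high. Without the 3 arrays with high hepatocyte markers the change was -0.51 with an adjusted p of 0.0677 (limma). Without abdominal high-phosphate array 2 or 4, or abdominal chow array 1 or 2, the adjusted p ran from 0.0503 to 0.0608. Cell markers moved in the same comparison. The mean of 9 adventitial fibroblast genes was 8.41 to 8.64 in abdominal high-phosphate arrays and 8.98 to 9.27 in abdominal chow arrays, with 5 of 9 called lower. That of 10 brown adipocyte genes was 7.05 to 7.57 in abdominal high-phosphate and 8.53 to 8.96 in abdominal chow arrays, with 9 of 10 called lower. Neither list mean overlapped between the abdominal groups. In the thoracic aorta the fibroblast mean was 8.98 to 9.28 on high phosphate and 9.11 to 9.28 on chow, with 0 of 9 called. The brown adipocyte mean was 7.77 to 8.34 in thoracic high-phosphate and 8.87 to 9.17 in thoracic chow arrays, without overlap and with 5 of 10 called lower. The mean of 9 osteoclast genes was 5.65 to 5.79 in abdominal high-phosphate and 5.68 to 5.79 in abdominal chow arrays, with 1 called lower and 1 higher. Macrophage markers (mean of 10 genes) were 7.87 to 8.17 in abdominal high-phosphate and 7.54 to 7.87 in abdominal chow arrays, with 1 of 10 called higher. The part of these cells in the Ctsk change was not tested.

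The Ctsk promoter is shown because Ctsk gave the call for diet, with the E-box CANNTG in capitals, the general core motif of basic helix-loop-helix factors. It lies at chr3:95498960-95499259 on the plus strand (GRCm38.p6, RefSeq), printed 5′ to 3′.
Ctsk: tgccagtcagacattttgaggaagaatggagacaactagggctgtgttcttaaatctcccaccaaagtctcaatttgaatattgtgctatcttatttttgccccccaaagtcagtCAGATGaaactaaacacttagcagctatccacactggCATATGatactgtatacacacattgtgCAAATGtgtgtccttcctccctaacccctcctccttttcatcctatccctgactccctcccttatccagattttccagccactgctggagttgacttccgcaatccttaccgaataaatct
The E-box, searched on both strands, occurred 3 times, none overlapping another motif searched, and occurs in 72.3% of 32851 promoters. NFAT factors are known activators of Ctsk in osteoclasts, and their core GGAAA, searched on both strands, occurred 1 time in this window and in 61.3% of promoters. The RUNX core TGTGGT, found in 16.8% of promoters, was in none of the 4 windows. The genes whose profile over the 15 arrays was most like that of Ctsk, by root mean square difference after centring each on its mean, were Adamts16 (0.127), Ppp2r1b (0.128) and Iars2 (0.132), among 19369 candidates. Ctsk itself varied by 0.268 on that measure.

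**Figure D2:**
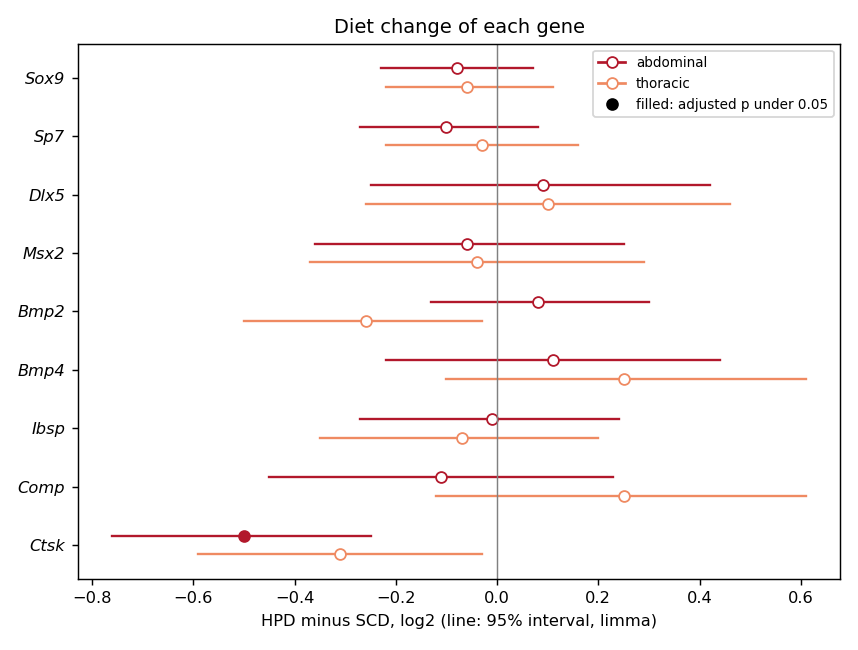
Diet change (high phosphate minus chow, log2) of each of the 9 genes in the abdominal and thoracic aorta, with 95% confidence intervals from limma as lines and called genes as filled points. Ctsk lies below 0 in both segments, at -0.50 and -0.31, and the abdominal value is the called one.

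For the other 8 genes the abdominal diet differences lay between -0.11 and 0.11, their intervals within -0.45 to 0.44, and their adjusted p between 0.567 and 0.972 (limma). In the fit to all 15 arrays these intervals corresponded to folds of 0.732 to 1.35. Bmp4 moved most with the arrays used, as given above. The 9 thoracic differences lay between -0.31 and 0.25, with intervals within -0.59 to 0.61. The median over the 9 was -0.055 in the abdominal and -0.041 in the thoracic aorta, against -0.008 and -0.011 over all genes. The comparisons between segments below share their arrays with these diet comparisons.

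The segments were then compared on each diet. On chow 0 of 9 genes were called by limma, where 4.78% of all genes were (1.76% higher and 3.02% lower), and 1 of 9 had an unadjusted p under 0.05, as 19.4% of all genes did. That gene was Dlx5, which was 0.55 ± 0.157 higher in thoracic than abdominal chow arrays with an adjusted p of 0.0616 and an exact permutation p of 0.0571 (two-sided). The lowest thoracic chow value, 5.53, lay just under the highest abdominal chow value, 5.56, and without abdominal chow array 1, which held that value, the adjusted p was 0.0154. The chow difference was 0.26 without the 5 lymphocyte-marker arrays. On high phosphate 2 of 9 were called, where 13.8% of all genes were (7.57% higher and 6.25% lower). Dlx5 was 1.47-fold higher in thoracic than abdominal high-phosphate arrays, a difference of 0.56 ± 0.169 with an adjusted p of 0.0404 by limma. Bmp2 was 1.34-fold lower there (-0.43 ± 0.11, adjusted p 0.019). The exact permutation p was 0.0571 for Dlx5 and 0.0286 for Bmp2, two-sided, where 0.0286 is the smallest possible. Thoracic and abdominal high-phosphate arrays did not overlap for Sp7, Bmp2, Dlx5 and Comp, 4 of 9 genes, against 23.8% of all genes.

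Comp was 0.52 ± 0.172 higher in thoracic high-phosphate than abdominal high-phosphate arrays with an adjusted p of 0.0573 (limma) and no overlap. Without thoracic high-phosphate array 2 the difference was 0.27 with an adjusted p of 0.264, and without abdominal high-phosphate array 3 it was 0.58 with an adjusted p of 0.0395. Comp was also called after quantile normalization or median centring and with array weights, as given below. The Bmp4 difference between segments on high phosphate was 0.28 and not called. It was -0.18 without the 5 lymphocyte-marker arrays. It was called without the 3 hepatocyte-marker arrays (0.54, adjusted p 0.0358, limma), which leaves abdominal high-phosphate arrays 1 and 2. It was also called without abdominal high-phosphate array 3 alone (0.44, adjusted p 0.0432). The Bmp2 and Dlx5 calls did not hold under every exclusion. Leaving out the 5 lymphocyte-marker arrays gave -0.41 for Bmp2 (adjusted p 0.416, limma) and 0.31 for Dlx5 (adjusted p 0.462). Leaving out the 3 hepatocyte-marker arrays gave -0.42 for Bmp2 (adjusted p 0.0748) and 0.65 for Dlx5 (adjusted p 0.0558). The directions stayed the same in both cases and neither gene was called. The Bmp2 call was lost without abdominal high-phosphate array 1 or thoracic high-phosphate array 2 or 3, at adjusted p of 0.0503 to 0.0903. The Dlx5 call was lost without any 1 of 8 arrays, abdominal high-phosphate 1, 2 or 4, thoracic high-phosphate 1, 2 or 3 and thoracic chow 2 or 4, at adjusted p of up to 0.13. With the replicate number as a block Dlx5 was 0.51 higher with an adjusted p of 0.0902. On high phosphate all 10 smooth muscle genes were called higher and 8 of 11 T and NK cell genes lower in thoracic arrays, with smooth muscle means of 9.23 to 9.46 in thoracic and 8.14 to 8.88 in abdominal high-phosphate arrays. Of 12 cardiac muscle genes 11 were higher there, and of 12 sympathetic neuron and chromaffin genes 11 were lower, with chromaffin means of 5.64 to 6.79 in thoracic and 8.45 to 8.94 in abdominal high-phosphate arrays. The part of these cells in the segment differences was not tested.

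**Figure D3:**
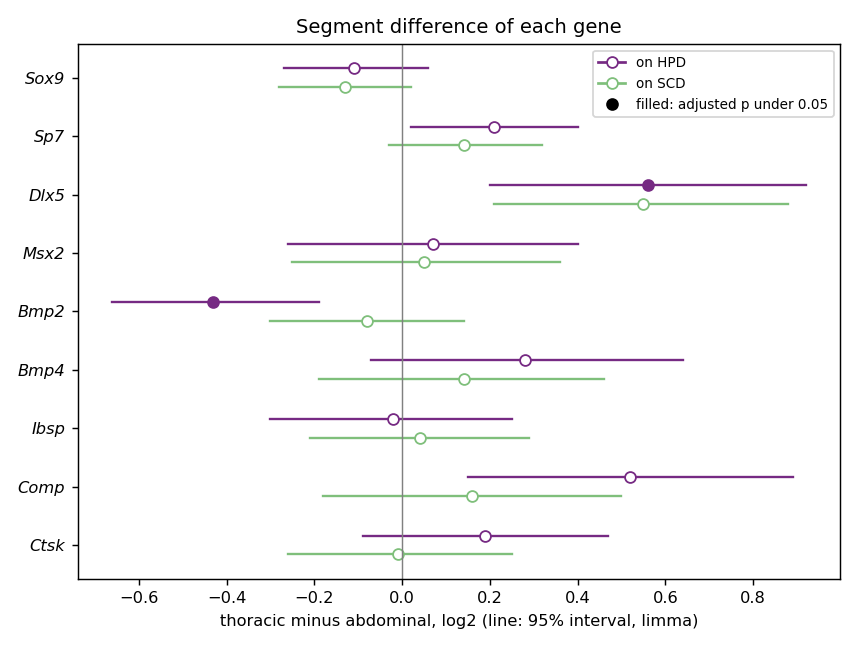
Segment difference (thoracic minus abdominal, log2) of the 9 genes on high phosphate and on chow, with 95% confidence intervals from limma as lines and called genes as filled points. Dlx5 lies at 0.56 on high phosphate and 0.55 on chow, and Bmp2 at -0.43 on high phosphate.

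The profiles most like Dlx5 over the 15 arrays were those of Thsd4 (0.13), Mylk (0.141) and Entpd1 (0.157), where Dlx5 itself varied by 0.344. Mylk encodes the myosin light chain kinase of smooth muscle. For Bmp2 they were Taf4b (0.0939), Zfp715 (0.0944) and Naa15 (0.106), against 0.192 for Bmp2.

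Genes around the 9 in the same pathways were read from 10 lists, with 155 genes measured; Runx2 and Spp1 were not analysed here. Of these 2 were called higher and 13 lower in the abdominal diet comparison, 9.68% in all against 7.01% of all genes. Of the 13 falls 6 lay in the list of bone matrix and mineral genes, where 6 of 14 were lower and 0 higher, with a list median of -0.228 against -0.008 over all genes. Col1a1, a chain of type I collagen, lay at 6.34, 6.35, 6.70 and 6.68 in abdominal high-phosphate arrays, against 7.59, 7.30, 7.36 and 7.24 in abdominal chow arrays. The groups did not overlap. Col1a1 fell by 0.86 ± 0.111 with an adjusted p of 0.000242 (limma), and Col1a2, the other chain, by 1.04 ± 0.12. Postn (periostin) fell by 0.80 ± 0.104 and Sparc, a collagen-binding matrix protein, by 0.56 ± 0.0679. Phex, an endopeptidase of phosphate balance, fell by 0.62 ± 0.155, and Alpl, the alkaline phosphatase of mineralising cells, by 0.41 ± 0.104. All 16 abdominal diet calls, Ctsk and those of these lists, were lost in at least 1 of 26 alternatives.

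Of these genes Col1a1, Col1a2, Postn and Sparc are also made by fibroblasts, whose markers were lower in the same arrays, as given above. The part of fibroblasts in these falls was not tested. Without the 5 arrays with high lymphocyte markers 0 of the 14 were called lower in the abdominal aorta, and without the 3 with high hepatocyte markers 6 were. The fit without the 5 keeps 1 abdominal high-phosphate array, and the list median was -0.234 in it. Col1a1 was then at -0.78 (adjusted p 0.0781, limma), Col1a2 at -0.68 (adjusted p 0.0599), Postn at -0.56, Sparc at -0.41, Alpl at -0.34 and Phex at -0.24. In the thoracic aorta 1 of 14 fell, Col1a1, by 0.49 ± 0.12 with an adjusted p of 0.044 (limma), and without the 3 hepatocyte-marker arrays the difference was -0.46 with an adjusted p of 0.075. Averaged over segments 7 of 14 fell, the 6 above and Fam20c, a kinase of secreted matrix proteins, where 6.18% of all genes were called lower. Fewer of the 14 were called without the 5 lymphocyte-marker arrays, and fewer over all genes.

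Other transcription factors gave 3 of 24 called lower in the abdominal aorta, Prrx1 (-0.48 ± 0.102), Sox6 (-0.57 ± 0.143) and Twist1 (-0.58 ± 0.164), and 0 higher. Over all genes 5.06% were called lower and 1.95% higher in that comparison. Sox6 is a partner of Sox9 in cartilage, and Prrx1 and Twist1 are factors of mesenchymal cells. Of the 17 BMP inhibitors Fstl1 and Twsg1, secreted proteins that bind or modulate BMPs, fell by 0.63 ± 0.129 and 0.65 ± 0.133 in the abdominal aorta. None of 17 other ligands, 13 receptors and SMADs, 9 BMP target genes or 24 cartilage matrix genes was called for diet there. The list medians were -0.024 for the transcription factors, -0.108 for the BMP inhibitors and -0.07 for the cartilage genes. Without the 5 lymphocyte-marker arrays 0 of 24 transcription factors and 0 of 17 BMP inhibitors were called lower by limma, with list medians of 0.002 and 0.02. Prrx1 was then at -0.15, Twist1 at -0.17, Sox6 at -0.30, Fstl1 at -0.27 and Twsg1 at -0.41. Without the 3 hepatocyte-marker arrays 4 transcription factors and 3 BMP inhibitors were called lower. Averaged over segments the BMP target Id3 rose by 0.36 and the target Hey1 fell by 0.31. Id3 was called higher and Hey1 was not called without the 5 lymphocyte-marker arrays, and without the 3 hepatocyte-marker arrays neither was.

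Of 17 osteoclast genes 1 rose and 1 fell in the abdominal aorta, and so did 1 and 1 of 16 other cathepsins and cystatins. Over all genes 1.95% were called higher and 5.06% lower there. Acp5, the tartrate-resistant acid phosphatase of osteoclasts and macrophages, lay at 7.73, 7.75, 7.13 and 7.71 in abdominal high-phosphate arrays, against 8.34, 8.26, 8.17 and 7.97 in abdominal chow arrays, and fell by 0.60 ± 0.156. Atp6v0d2, a subunit of the vacuolar proton pump, lay at 4.91, 4.91, 4.84 and 6.02 in abdominal high-phosphate arrays, against 4.29, 4.28, 4.13 and 4.67 in abdominal chow arrays, and rose by 0.83 ± 0.21. Abdominal high-phosphate array 4 held by far the highest Atp6v0d2 value, and without it the rise was 0.54 with an adjusted p of 0.0181 (limma). Ctsd, a lysosomal aspartic protease, fell by 0.30 ± 0.0637. Ctsl, a cysteine protease related to Ctsk, rose in both segments, by 0.42 ± 0.0658 in the abdominal and 0.32 ± 0.071 in the thoracic aorta. Without the 5 lymphocyte-marker arrays none of these 4 genes was called in the abdominal aorta by limma, with Acp5 at -1.12 (adjusted p 0.0731), Atp6v0d2 at 0.63, Ctsd at -0.40 and Ctsl at 0.41 (adjusted p 0.177), and Ctsl was not called in the thoracic aorta (adjusted p 0.0535). Without the 3 hepatocyte-marker arrays Acp5 (-0.44) and Ctsd (-0.26) were not called in the abdominal aorta. In the thoracic aorta Thbs1, a thrombospondin related to Comp, rose by 0.89 ± 0.19 with an adjusted p of 0.0225 (limma), which with Col1a1 and Ctsl makes 3 of 155 genes called, 1.94% against 2.47% of all genes.

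**Figure D4:**
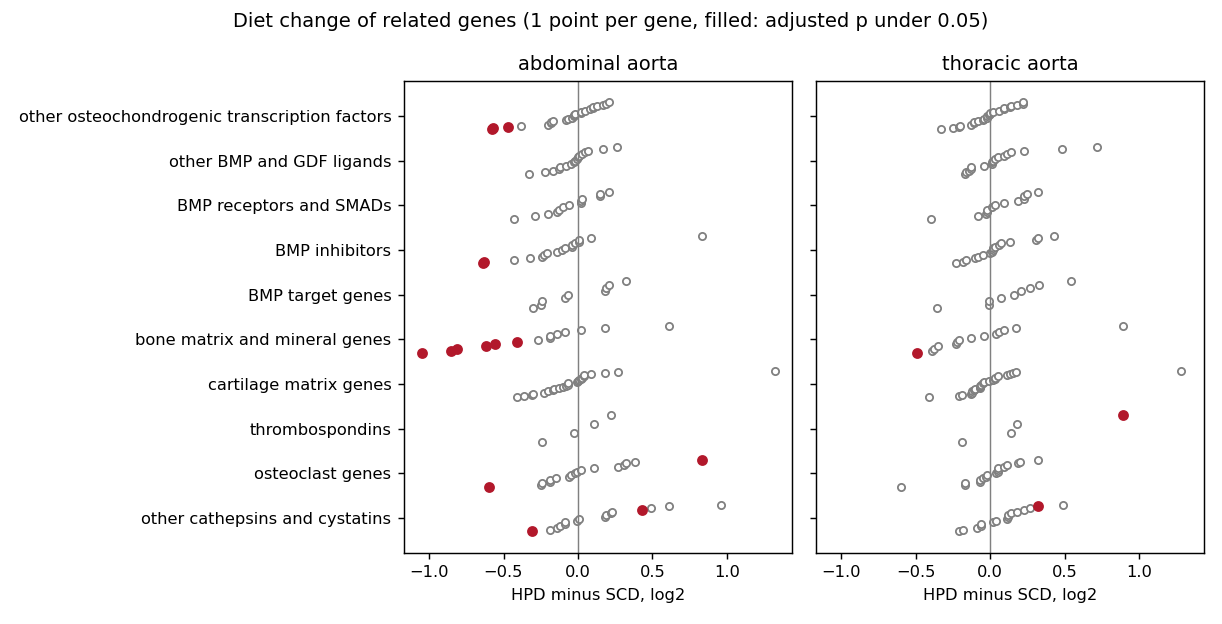
Diet change (high phosphate, HPD, minus chow, SCD, log2) of each measured gene of the 10 lists of related genes in the abdominal and thoracic aorta; each point is 1 gene, filled where limma called it. The bone matrix and mineral list has 6 of 14 filled points below 0 in the abdominal aorta, and 1 in the thoracic aorta.

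The related genes were also compared between segments. On chow 3 were higher and 5 lower in thoracic arrays (5.16% of 155, against 4.78% of all genes), among them Sost (0.76 ± 0.171), a secreted inhibitor of bone formation, and Sostdc1 (-1.01 ± 0.184), its relative. Without the 5 lymphocyte-marker arrays 1 was higher and 3 lower, and without the 3 hepatocyte-marker arrays 3 were higher and 3 lower. On high phosphate 31 were higher and 10 lower in thoracic arrays (26.5%, against 13.8% of all genes). Of 17 other BMP and GDF ligands 2 were higher and 1 lower, with Bmp6 at 0.66 ± 0.157 and Gdf11 at -0.64 ± 0.148. Of 13 receptors and SMADs 3 were higher and 0 lower, among them the receptors Bmpr1a (0.62 ± 0.133) and Bmpr1b (0.92 ± 0.225). Of 9 BMP targets 3 were higher and 0 lower, Id1 (0.68 ± 0.173), Id3 (0.55 ± 0.137) and Id4 (0.44 ± 0.0933). Of 17 BMP inhibitors 6 were higher and 2 lower, with Fstl1 at 1.08 ± 0.139 and Smoc1 at 1.00 ± 0.222, against Sostdc1 at -0.87 ± 0.198 and Grem1 at -1.56 ± 0.494. Most of these calls were lost without the 5 lymphocyte-marker arrays, and calls over all genes also fell. That fit keeps 1 abdominal high-phosphate array, so the losses cannot be read as a result about these lists. The list medians in it were 0.132 for the ligands, -0.021 for receptors and SMADs, 0.152 for targets and 0.16 for inhibitors. With all arrays they were 0.207, 0.076, 0.135 and 0.148. Fstl1 was at 0.61 without the 5. Without the 3 arrays with high hepatocyte markers 32 of the 155 genes were higher and 14 lower. Over all genes 3325 were called in that setting, against 3067 with all arrays.

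**Figure D5:**
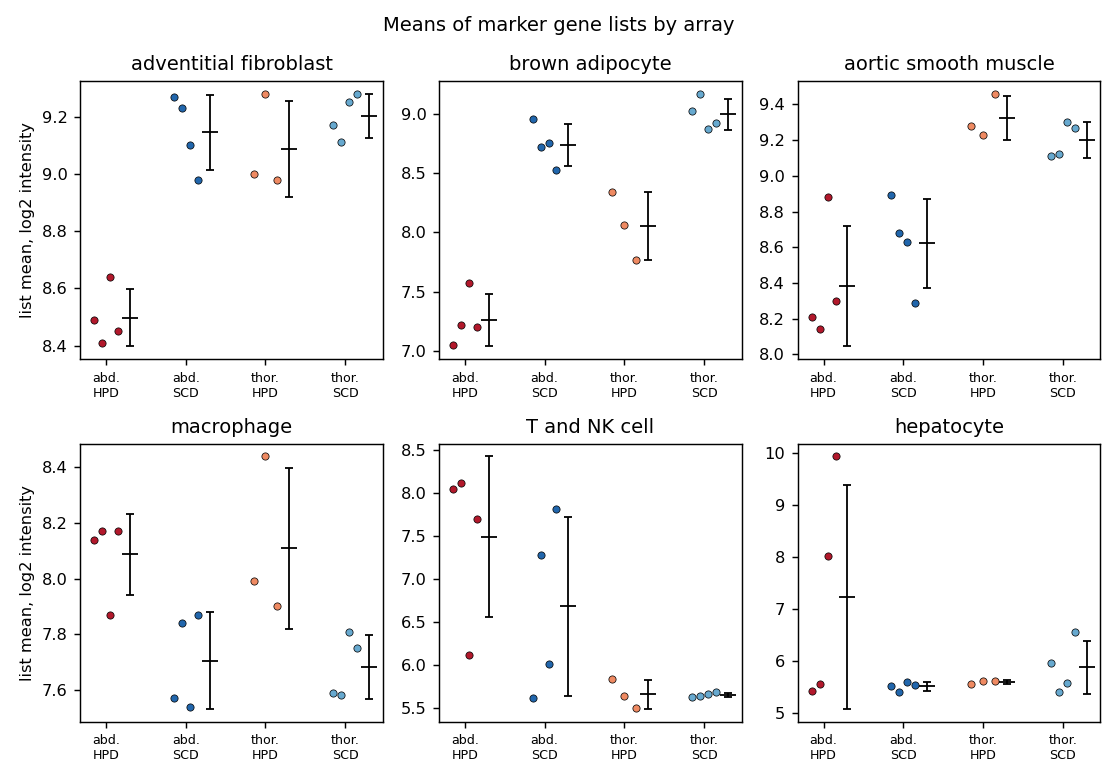
Mean log2 intensity of 6 lists of cell type markers in each array, by segment and diet (HPD, high phosphate; SCD, chow), with the group mean ± SD beside the points. The adventitial fibroblast mean is 8.41 to 8.64 in abdominal high-phosphate arrays and 8.98 to 9.27 in abdominal chow arrays, and the T and NK cell mean is high in 5 abdominal arrays.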

How the data were processed

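The authors deposited 1 value per probe set and array, taken here as log2 intensities; RMA and Partek appear in the submitters' processing notes without version or role. Values ran from 1.381 to 13.33, from which the unstated log base was inferred. Array medians lay between 5.778 and 5.84, and correlations between arrays of a group between 0.9739 and 0.9885. Titles gave the segment and diet of each of the 15 arrays. No scan dates or detection calls were used, so batches by date were not examined.

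Of 41345 probe sets 23521 name exactly 1 gene symbol, and the brightest by mean over all arrays was kept, which gave 22180 genes. Genes were named through the platform annotation and RefSeq symbols, and predicted symbols were left out of the likeness search. Using R 4.3.3, limma 3.58.1 (lmFit and eBayes, trend on) estimated 4 group means with 11 residual degrees of freedom, with 6 contrasts, two-sided, Benjamini-Hochberg adjusted over all genes. The code was tested on simulated data. Plots were drawn from the same values.

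The 9 genes, the lists of related genes and the cell marker lists were chosen with earlier results of these data known, and are described by counts and medians. All 9 genes are named in every comparison. Of a related list, called genes may be named and otherwise up to 3 with the smallest p. The labels' replicate numbers were checked as pairs by correlating deviations of same-numbered arrays from their group means. The correlations ran from -0.25 to 0.404, and both ends came from abdominal arrays on different diets. Between segments on the same diet they were 0.031 to 0.122 on high phosphate and 0.03 to 0.069 on chow. The labels do not say whether segments share mice, and the main fit treated arrays as independent. Any sharing of mice between segments is not allowed for in its p-values. Alternatives changed the variance prior, dim-gene filter (30th percentile), arrays in the fit, normalization (quantile, median centring), array weights, replicate block, probe set averaging and threshold, and left out single arrays or those with high lymphocyte or hepatocyte markers. Precision is limited by the number of arrays. The p-values measure the spread between arrays described as biological replicates.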

Additional observations from a re-analysis of the deposited data

Results flagged for a closer look

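Sox9 in abdominal high-phosphate array 3, at 6.52, stood apart from the other 3 arrays of its group, which all lay at 6.44. The gap was 0.978 of the group's range, where 0.829 is the critical value for 4 arrays. Of 27 groups examined 1 was set apart in this way, and chance alone sets apart about 1 in 20 groups. The other Sox9 values in the group are identical to 2 decimals, and the value lies within the range of the abdominal chow arrays.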

How the results depend on the processing

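Across 26 alternatives (25 for the average and the difference, since the fit with only the compared groups was not run for them), the count of the 9 genes called was 0 in every setting for the thoracic diet change and for the difference of the diet changes. In the abdominal diet change, where Ctsk was called, it was 0 without the 5 lymphocyte-marker arrays and 0 without the 3 hepatocyte-marker arrays, and 0 to 1 when arrays were left out in turn. For the average it was 0 without the 5 lymphocyte-marker arrays and 1 to 1 over single arrays left out. Between segments on chow, where 0 were called, Dlx5 made it 1 with dim genes removed and 1 at an adjusted p under 0.1, and 0 to 1 over single arrays left out. On high phosphate, where 2 were called, it was 1 with the replicate block (Bmp2), 0 without the 5 lymphocyte-marker arrays, 1 without the 3 hepatocyte-marker arrays (Bmp4 in place of Bmp2 and Dlx5) and 0 to 4 over single arrays left out. On high phosphate Comp made it 3 with dim genes removed, quantile normalization, median centring or array weights. It was also 3 at an adjusted p under 0.1. The replicate block left the counts of the other comparisons as they were. Of the called genes among the 9 and the related lists, 16 of 16 in the abdominal and 3 of 3 in the thoracic diet change lost their call in at least 1 alternative, as did 15 of 21 in the average, 4 of 8 between segments on chow and 40 of 43 on high phosphate; 0 changed sign.

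Over all genes, 1554 were called in the abdominal diet change, against 1026 with only the 2 groups in the fit, 137 without the lymphocyte-marker arrays and 891 to 2249 over single arrays left out. In the thoracic one 548 were, against 907 with array weights, 992 at an adjusted p under 0.1, 286 without the hepatocyte-marker arrays and 209 to 605 over single arrays. For the average 2376 were, against 1029 without the lymphocyte-marker arrays. For the difference 0 were, against 43 without those arrays and 0 to 1 over single arrays. On chow 1061 segment differences were called, against 1795 at an adjusted p under 0.1, 496 without the lymphocyte-marker and 675 without the hepatocyte-marker arrays, and 500 to 1369 over single arrays. On high phosphate 3067 were, against 466 without the lymphocyte-marker arrays and 1695 to 4025 over single arrays. Arrays left out leave fewer samples in the fit; other causes of these shifts were not tested. Signal over background is unknown, which limits Msx2 and Ibsp most.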

Other observations

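Some genes beside the 9 had large differences that were not called, and they are named after their values were seen. Prg4, which encodes the lubricating protein of joint surfaces, was 1.33 ± 0.564 higher on high phosphate than on chow in the abdominal aorta, with an adjusted p of 0.198 (limma). In the thoracic aorta its diet difference was 1.28 ± 0.609, with an adjusted p of 0.371. Omd, which encodes osteomodulin of the bone matrix, was 0.61 ± 0.317 higher on high phosphate in the abdominal and 0.89 ± 0.343 higher in the thoracic aorta, with adjusted p of 0.312 and 0.232. The groups of both genes overlapped in both segments. Prg4 lay at 6.78, 7.25, 8.82 and 8.80 in abdominal high-phosphate arrays, against 7.23, 6.28, 6.94 and 5.90 in abdominal chow arrays. Its high values were in arrays 3 and 4, which are among the 3 hepatocyte-marker arrays, and without those 3 the difference was 0.43. Omd lay at 7.45, 7.48, 8.87 and 7.92 in abdominal high-phosphate arrays, against 7.71, 7.25, 7.17 and 7.16 in abdominal chow arrays. Without abdominal high-phosphate array 3, which held the highest value, the Omd difference was 0.29. The thoracic difference of Omd was 0.54 without thoracic high-phosphate array 3.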
